A study of Mus musculus with 12 samples.

Results

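Connexin and pannexin genes encode the subunits of channels that open directly between neighbouring cells or from the cell to its surroundings. The 5 genes described here are the mouse genes Gja1, Gjb2, Gjb6, Gjc1 and Panx1, taken by symbol from 55421 genes measured in B16F10 cells, a mouse melanoma line that forms pigmented tumours. They were picked with earlier results of these libraries known, on the observation that Gja1 and Gjb2 go opposite ways in Bub1KO cells, so every difference between genotypes in these 5 genes is given as a description without a test. Each group holds 3 libraries of total RNA. The groups are Bub1KO cells after 8 Gy of radiation, vector control (VC) cells after 8 Gy, Bub1KO cells with no treatment and VC cells with no treatment. All are B16F10 cells grown in DMEM with serum, Bub1KO cells carry a CRISPR-Cas9 disruption of Bub1, a mitotic checkpoint kinase, and the study's stated purpose was to learn how Bub1 deficiency enhances radiotherapy. How many clones the Bub1KO cells represent, and how long after radiation RNA was taken, is stated in none of the sources used. Nor do the labels tell whether replicate libraries are separate cultures, so a p-value measures the spread between these libraries, which may be technical.

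A gap junction forms where connexin hemichannels of adjoining cells dock end to end, and it passes ions, second messengers and small metabolites from cell to cell. Gja1 encodes connexin 43, the most widely expressed connexin, which in skin couples keratinocytes, fibroblasts and melanocytes. Gjb2 encodes connexin 26 and Gjb6 encodes connexin 30, epithelial connexins whose loss causes deafness and some of whose variants cause skin disease. Gjc1 encodes connexin 45, best known in the heart's conduction system and smooth muscle. Panx1 encodes pannexin 1, which does not normally build gap junctions but forms single-membrane channels that release ATP, including from dying cells after caspase cleavage. In bulk RNA, fewer cells with a transcript and less of the transcript per cell cannot be told apart.

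The genes that differed most between genotypes, Gja1 and Gjb2, lie on different chromosomes. Gja1 spans chromosome 10 from 56377330 to 56402513 on the plus strand of GRCm38, and Gjb2 spans chromosome 14 from 57098600 to 57104702 on the minus strand. Gjb6 lies beside Gjb2, from 57123303 to 57133611 on the minus strand. Gjc1 spans chromosome 11 from 102799579 to 102819700 and Panx1 spans chromosome 9 from 15002128 to 15045478, both on the minus strand. No other annotated gene overlaps any of the 5. RefSeq promoter windows of GRCm38.p6 were available for Gja1, Gjb2, Gjb6 and Panx1, which is 4 of the 5. The 250 bases before the RefSeq start of Gja1 (chr10:56377050-56377299, plus strand) and of Gjb2 (chr14:57104703-57104952, minus strand) are shown, because these are the genes with the opposite genotype differences, and capitals mark matches to the searched motifs.
Gja1: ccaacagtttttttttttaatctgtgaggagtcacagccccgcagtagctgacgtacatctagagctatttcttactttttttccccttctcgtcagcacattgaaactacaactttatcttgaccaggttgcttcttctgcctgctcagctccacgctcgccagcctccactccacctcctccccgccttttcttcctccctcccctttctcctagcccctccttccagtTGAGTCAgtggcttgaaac
Gjb2: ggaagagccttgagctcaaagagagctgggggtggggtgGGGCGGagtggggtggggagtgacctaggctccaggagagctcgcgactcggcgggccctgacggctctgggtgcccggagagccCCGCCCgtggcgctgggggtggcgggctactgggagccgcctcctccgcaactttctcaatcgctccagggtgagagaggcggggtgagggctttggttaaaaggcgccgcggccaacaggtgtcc
Both strands were searched for 4 motifs: the AP-1 motif TGANTCA, the GC box GGGCGG, the E-box CACGTG and the TATA box TATAAA, none of which overlapped another in these windows. The Gja1 window held 1 match, an AP-1 motif that begins 19 bases before the start, and 6.75% of 32851 windows of the same length hold this motif. The Gjb2 window held 2 GC boxes, beginning 211 and 126 bases before the start, the second as the reverse complement on the printed strand, and 32.7% of windows hold this motif. The Gjb6 and Panx1 windows held none of the motifs. Of the bases in the window, 50.0% were G or C for Gja1 and 69.2% for Gjb2, against a median of 52.4% over all windows.

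Library depth ranged from 19380726 to 33087366 reads in genes. Values are normalized counts, read counts divided by a size factor per library. A gene was tested where its value reached 10 in at least 3 libraries, which 14721 genes did. Of the 5 genes, 4 passed, and Gja1 passed through its VC libraries alone. Differences and their tests are from limma on log2(value + 1), with p-values adjusted over all tested genes. Bub1 itself averaged 998 ± 117 in Bub1KO and 1484 ± 22.8 in VC after 8 Gy, and 1662 ± 149 in Bub1KO and 2932 ± 226 in VC with no treatment (SD, n = 3 each), so its transcript was lower but still present in the Bub1KO libraries. Markers fitted the labelled melanoma line: all 7 melanocyte markers passed the filter, their summed level was 386911 to 578932 in every library, and none of 9 keratinocyte and epithelial markers passed, with Krt1, Krt10 and Krt18 at 0 reads throughout. One library, Bub1KO with no treatment replicate 1, stood apart. The number of genes called between untreated Bub1KO and VC cells was 591 with it and 2736 without it, so the members' differences that rest on it are also given without it.

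Gja1 transcript was nearly absent from Bub1KO cells and present in VC cells. After 8 Gy it had 7.22, 4.04 and 6.30 normalized counts in the Bub1KO libraries, against 161, 172 and 149 in the VC libraries. With no treatment it had 2.03, 0 and 2.11 in the Bub1KO libraries, against 101, 83.8 and 65.5 in the VC libraries. Every Bub1KO library lay far below every VC library at either treatment. The values rest on few reads, 17 in the irradiated Bub1KO libraries together and 4 in the untreated ones, against 555 and 239 in the VC libraries, and the reads in the untreated Bub1KO libraries, 2, 0 and 2, lie below the limit of 3 that a count of 0 allows in a library. As a ratio of reads corrected for depth, the Bub1KO level was 3.62% of the VC level after 8 Gy (95% exact interval 2.09% to 5.85%) and 1.48% with no treatment (0.399% to 3.83%), intervals that cover counting error only. On the log2(value + 1) scale, where the change of a gene with few counts is understated, the difference of Bub1KO minus VC was -4.59 (SE 0.228) after 8 Gy and -5.30 (SE 0.458) with no treatment, and -5.56 without Bub1KO replicate 1. In absolute size it ranked 5 of 14721 tested genes in both comparisons, which only describes the difference that chose the gene.

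Gjb2 had the opposite genotype difference and was the most abundant of the 5 genes. Its values after 8 Gy were 7027, 7232 and 7205 normalized counts in Bub1KO cells, against 4428, 4286 and 4230 in VC cells. With no treatment they were 6118, 5302 and 4835 in Bub1KO cells, against 2279, 2066 and 2303 in VC cells. The lowest Bub1KO library exceeded the highest VC library at both treatments. The ratio of the group means was 1.66 after 8 Gy, a log2 difference of 0.73 (SE 0.0514), and 2.44 with no treatment, a log2 difference of 1.28 (SE 0.106), or 1.19 without Bub1KO replicate 1. By absolute size these differences ranked 1042 and 270 of the tested genes, again only a description.

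Gjc1 was slightly lower in Bub1KO cells at both treatments. It had 410, 423 and 436 normalized counts in Bub1KO cells after 8 Gy, against 508, 498 and 501 in VC cells. With no treatment it had 793, 754 and 737 in Bub1KO cells, against 838, 971 and 919 in VC cells. The groups did not overlap, but the distance was small, a log2 difference of -0.25 after 8 Gy (SE 0.0752) and -0.25 with no treatment (SE 0.0981), or -0.28 without Bub1KO replicate 1.

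Panx1 differed little between genotypes. It had 926, 954 and 979 normalized counts in Bub1KO cells after 8 Gy, against 838, 772 and 890 in VC cells, groups that lay close without overlapping. With no treatment it had 1603, 1345 and 1533 in Bub1KO cells, against 1370, 1371 and 1576 in VC cells, and the groups overlapped. The log2 differences were 0.20 (SE 0.0717) after 8 Gy and 0.05 (SE 0.105) with no treatment, or 0.00 without Bub1KO replicate 1.

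Gjb6 was at the limit of detection, with 2 reads over all 12 libraries. One was in VC after 8 Gy replicate 1 and the other in Bub1KO with no treatment replicate 1, and the other libraries were at 0 reads, which allows a normalized count of up to 2.47 to 3.87 in each of them.

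**Figure D1:**
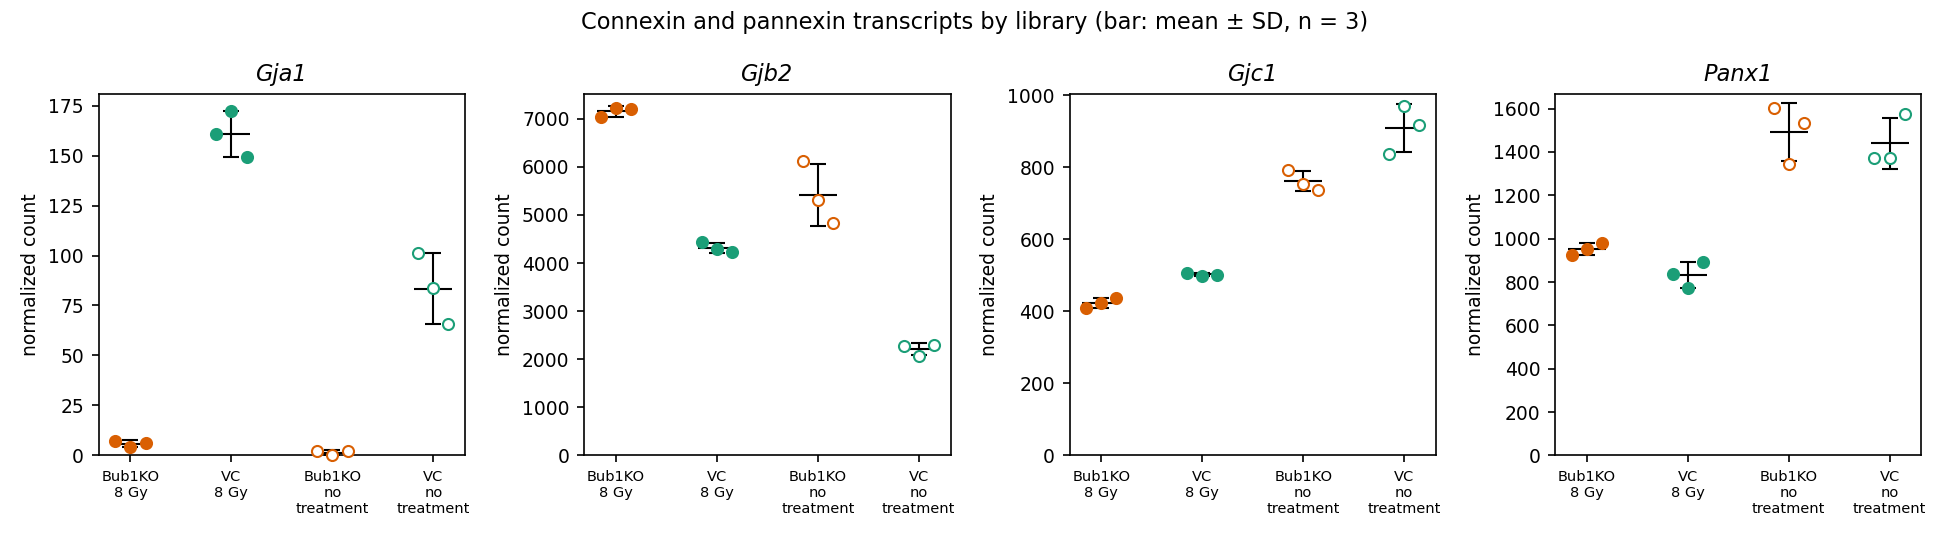
Normalized counts of Gja1, Gjb2, Gjc1 and Panx1 in each library, with points for libraries, bars for the mean ± SD (n = 3) and a linear axis from 0 in each panel. Filled points are libraries after 8 Gy and open points libraries with no treatment. Gja1 stays at 7.22 or less in every Bub1KO library, while Gjb2 is at 4835 or more in every Bub1KO library and at 4428 or less in every VC library.

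Between genotypes, the libraries did not overlap for 4 of the 4 tested members after 8 Gy, where 44.7% of all tested genes did not overlap, and for 3 of 4 with no treatment, where the share was 25.6%. Because the choice of these genes used the genotype difference, nothing is read from these counts. The summed level of the melanocyte markers differed between genotypes as well, at 555547 to 578932 in Bub1KO and 430616 to 445913 in VC after 8 Gy, and 542890 to 552089 in Bub1KO and 386911 to 404327 in VC with no treatment. Much of that sum is Dct, at 269057 in Bub1KO and 169287 in VC after 8 Gy, and the markers did not all move together. Limma called 4 of the 7 higher and 0 lower after 8 Gy, where 30.7% of all tested genes were called. Mitf, Sox10 and Tyrp1 had differences of -0.11, -0.24 and -0.12 there, which did not pass. With no treatment 2 were called higher and 0 lower, against 4.01% of tested genes. The part of these markers in the genotype differences of the connexins was not tested.

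Radiation changed the level of Gjb2, Gjc1 and Panx1 in both genotypes. Gja1 was higher after 8 Gy in VC cells, by a call that depended on the settings and libraries used. Gjb2 rose after 8 Gy, and Gjc1 and Panx1 fell, in Bub1KO cells and in VC cells. These 3 passed the test in Bub1KO cells, where 49.4% of all tested genes did, 25.4% higher and 23.9% lower. In VC cells they passed as well, and Gja1 was higher, where 53.4% of tested genes passed, 27.6% higher and 25.8% lower, so a called change by itself was common. Gja1 is described without a test in Bub1KO cells, since no Bub1KO library reached the filter value of 10. These comparisons were not used to choose the genes, although they share libraries with the one that was.

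In Bub1KO cells Gja1 averaged 5.86 ± 1.64 normalized counts after 8 Gy and 1.38 ± 1.20 with no treatment (SD, n = 3 each). The ratio of reads corrected for depth was 4.60, with an exact 95% interval of 1.50 to 18.8 that covers counting error only. The log2 difference was 1.67, and its size depended on how few reads are treated, at 0.89 with a pseudocount of 4 and 2.21 with DESeq2. Without Bub1KO no treatment replicate 1 it was 1.93, and without replicate 2, which had no Gja1 read, it was 1.13. The irradiated Bub1KO level was far below that of untreated VC cells. In VC cells Gja1 averaged 161 ± 11.7 after 8 Gy and 83.5 ± 17.8 with no treatment, and the groups did not overlap. The log2 difference in VC was 0.96 (0.14 to 1.77, limma adjusted p = 0.0473), with a read ratio of 1.87 (1.61 to 2.19). That call was marginal in the fit on all 12 libraries, where leaving out any 1 of the 6 VC libraries ended it (adjusted p 0.0544 to 0.152). Limma on the 6 VC libraries alone gave an adjusted p of 0.000367 and edgeR's quasi-likelihood test on reads gave 0.000893.

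Gjb2 averaged 7155 ± 111 normalized counts in Bub1KO cells after 8 Gy and 5418 ± 649 with no treatment, a log2 difference of 0.41 (0.23 to 0.58, limma adjusted p = 0.000911), or 0.50 without Bub1KO no treatment replicate 1. In VC cells it averaged 4315 ± 102 after 8 Gy and 2216 ± 130 with no treatment, a log2 difference of 0.96 (0.79 to 1.14, limma adjusted p = 5.67e-07). Irradiated VC cells did not reach the level of untreated Bub1KO cells. The radiation effect in Bub1KO minus that in VC was -0.55 (SE 0.115) for Gjb2, or -0.46 without Bub1KO no treatment replicate 1. For Gja1 the same quantity was 0.71 (SE 0.537), but it was -0.04 with a pseudocount of 4, 1.27 with DESeq2 and 0.17 without Bub1KO no treatment replicate 2. Both are given without a test because they contain the genotype difference that chose the genes.

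Gjc1 fell in both genotypes by nearly the same amount. It averaged 423 ± 13.1 normalized counts after 8 Gy and 761 ± 28.5 with no treatment in Bub1KO cells, a log2 difference of -0.85 (-1.01 to -0.68, limma adjusted p = 1.17e-06), or -0.82 without untreated replicate 1. In VC cells it averaged 502 ± 4.84 after 8 Gy and 909 ± 67.1 with no treatment, a log2 difference of -0.85 (-1.02 to -0.69, limma adjusted p = 1.10e-06). The interaction, the radiation effect in Bub1KO minus that in VC, was 0.01 with a 95% interval of -0.23 to 0.24 (limma adjusted p = 0.992), against 0.55% of tested genes called for it.

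Panx1 fell as well. In Bub1KO cells it averaged 953 ± 26.7 normalized counts after 8 Gy and 1494 ± 133 with no treatment, a log2 difference of -0.64 (-0.83 to -0.46, limma adjusted p = 4.19e-05), or -0.59 without untreated replicate 1. In VC cells it averaged 833 ± 59.5 after 8 Gy and 1439 ± 119 with no treatment, a log2 difference of -0.79 (-0.98 to -0.60, limma adjusted p = 6.86e-06). The interaction was 0.14 (-0.13 to 0.41, limma adjusted p = 0.708), so a difference between the genotypes' responses of up to 0.41 was within the interval.

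**Figure D2:**
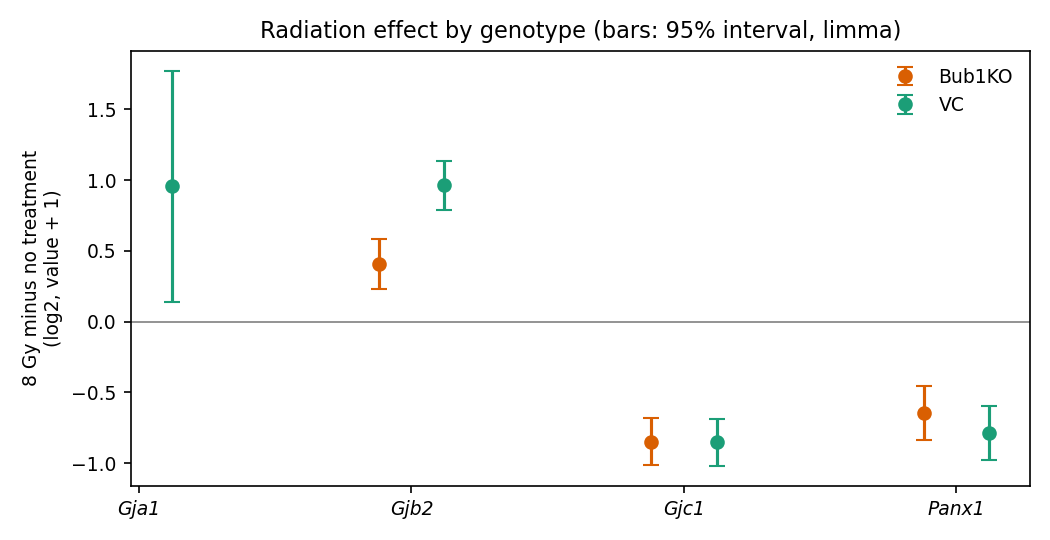
Radiation effect, 8 Gy minus no treatment on the log2(value + 1) scale, in Bub1KO and VC cells, with points for limma estimates and bars for 95% intervals. Gja1 is drawn for VC alone. Gjb2 lies above 0 and Gjc1 and Panx1 below 0 in both genotypes, and the Gja1 interval of 0.14 to 1.77 is the widest.

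Markers of leukocytes moved with radiation. Their summed level was 270 to 287 in Bub1KO and 172 to 196 in VC after 8 Gy, and 28.8 to 31.5 in Bub1KO and 29.0 to 32.3 in VC with no treatment. Of 7 such markers Cd68 and Lyz2 passed the filter, and the defining markers Adgre1 and Cd3e were at 0 reads in all libraries. Fibroblast and endothelial markers summed to 75.3 to 95.3 after 8 Gy and 86.4 to 161 with no treatment, with Col1a1 and Pdgfra past the filter out of 8. These moved opposite ways. Col1a1 rose, with log2 differences of 1.78 in Bub1KO and 1.88 in VC. Col1a1 reached at most 7.40 in untreated Bub1KO libraries and 7.56 in untreated VC ones, below the filter value. It passed through its irradiated libraries alone, so its rise is given as a description without a p-value. Pdgfra fell, with log2 differences of -1.11 in Bub1KO (limma adjusted p = 0.000360) and -1.41 in VC (limma adjusted p = 4.43e-05). The part of these markers in the radiation results was not tested.

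Among connexins compared per kb of exon, Gjb2 held the largest share in every group except untreated VC cells. Its share of the connexin total was 78.1 ± 1.45% in Bub1KO and 63.9 ± 0.828% in VC after 8 Gy, and 65.8 ± 1.22% in Bub1KO and 38.0 ± 2.71% in VC with no treatment (SD, n = 3 each). In untreated VC cells the largest share, 48.6 ± 2.42%, belonged to Gjc3, which encodes connexin 29, known from myelinating glia. The Gjc3 share was 16.3 ± 1.14% in Bub1KO and 27.4 ± 0.798% in VC after 8 Gy, and 25.3 ± 0.451% in untreated Bub1KO cells. The total itself was 3810 ± 73.0 normalized counts per kb in Bub1KO and 2805 ± 36.0 in VC after 8 Gy, and 3416 ± 351 in Bub1KO and 2426 ± 32.8 in VC with no treatment. Untreated Bub1KO replicate 1 had a total of 3801 and a Gjb2 share of 66.9%, against 3331 and 3115 in total and 66.1% and 64.5% in replicates 2 and 3, each above every untreated VC library. The connexin total was higher in Bub1KO cells, but most of it was Gjb2, picked with its genotype difference known. The higher total follows that choice and is not read as a rise across connexins. Per kb, Gjc3 was lower in Bub1KO than in VC, at 621 against 769 after 8 Gy and 862 against 1180 with no treatment. Gjc1 and Gja1 were lower as well, Gja3 was higher, and Gjb1 was lower after 8 Gy and higher with no treatment. Gja1 made up 0.0150% in Bub1KO and 0.559% in VC after 8 Gy, and 0.00394% in Bub1KO and 0.336% in VC with no treatment, so Gja1 was a small part of the total throughout. Per kb, Panx1 stood at 158 ± 4.43 in Bub1KO and 138 ± 9.86 in VC after 8 Gy, and 248 ± 22.1 in Bub1KO and 239 ± 19.7 in VC with no treatment. The order of the members per kb was Gjb2, Panx1, Gjc1, Gja1 and Gjb6 by group mean in all 4 groups, except that Gja1 and Gjb6 were both at or near 0 in untreated Bub1KO cells and could not be ordered.

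**Figure D3:**
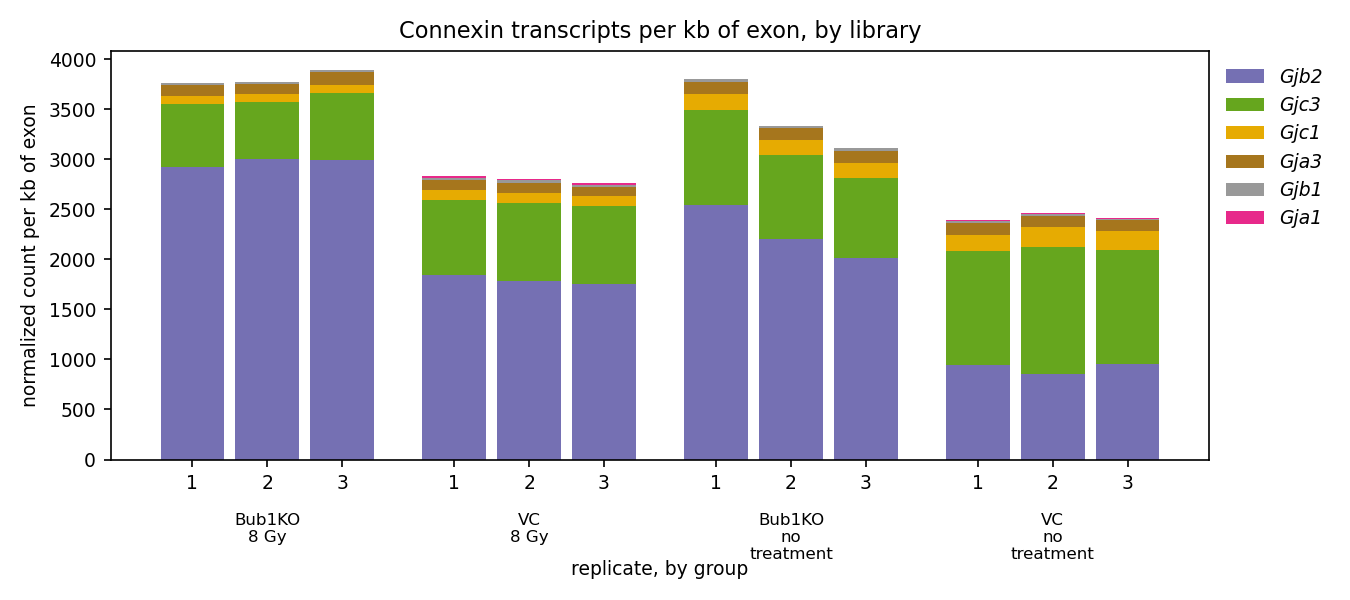
Normalized counts per kb of exon for 6 connexin genes stacked by library, on a linear axis from 0, with replicates grouped by genotype and treatment. Gjb2 is the largest block in the 9 libraries outside untreated VC, and Gjc3 is the largest in the 3 untreated VC libraries.

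Of 18 other connexin and pannexin genes, 3 passed the filter, Gjc3, Gja3 and Gjb1, and the other 15, Panx2 and Panx3 at 0 reads among them, did not. Only Gjc3 passed a test among the 3. Gjc3 averaged 2703 ± 223 normalized counts in Bub1KO and 3349 ± 62.4 in VC after 8 Gy, and 3754 ± 331 in Bub1KO and 5140 ± 326 in VC with no treatment. It was lower in Bub1KO than in VC after 8 Gy by a log2 difference of -0.31 (limma adjusted p = 0.00303), where 30.7% of tested genes were called, and with no treatment by -0.46 (limma adjusted p = 0.0336), where 4.01% were called. The untreated call ended in 7 of 14 alternative settings, with adjusted p up to 0.166, and the call after 8 Gy ended in 1 of 14, without the filter (0.0644). Gjc3 fell after radiation, with a log2 difference of -0.47 in Bub1KO (limma adjusted p = 0.000305) and -0.62 in VC (limma adjusted p = 3.15e-05). Gja3, the lens connexin 46 gene that lies 40.5 kb from Gjb2, averaged 328 ± 34.6 in Bub1KO and 300 ± 24.2 in VC after 8 Gy, and 366 ± 4.52 in Bub1KO and 334 ± 11.6 in VC with no treatment, and passed no test. Gjb1, the connexin 32 gene known from liver and peripheral myelin, averaged 28.6 ± 4.71 in Bub1KO and 33.6 ± 4.08 in VC after 8 Gy, and 40.4 ± 7.94 in Bub1KO and 31.3 ± 7.02 in VC with no treatment, and likewise passed none.

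The tested genes around Gja1 differed far less between genotypes than Gja1 did, and of those around Gjb2 only Il17d after 8 Gy had a difference of larger absolute size than that of Gjb2. Within 500 kb of Gja1 lay 10 genes including itself, and 3 others were tested, none of which was called between genotypes at either treatment by limma, edgeR or DESeq2. At an unadjusted p under 0.05, limma had 0 of the 3 after 8 Gy and 1 with no treatment. The protein-coding neighbour Tbc1d32, 149 kb away, differed by 0.13 after 8 Gy and 0.24 with no treatment on the log2 scale, where Gja1 differed by -4.59 and -5.30. Around the stretch of Gjb2 and Gjb6 lay 33 genes, of which 14 other genes were tested. After 8 Gy 3 of these were called, against 30.7% of all tested genes, namely Il17d (-0.84, limma adjusted p = 0.0484), Xpo4 (-0.57, adjusted p = 0.000305) and Ift88 (0.33, adjusted p = 0.0151), each more than 290 kb away. With no treatment limma called none of the 14, the smallest adjusted p being 0.0578 for Ift88, while 4 had an unadjusted p under 0.05, edgeR called 0 and DESeq2 called 1.

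**Figure D4:**
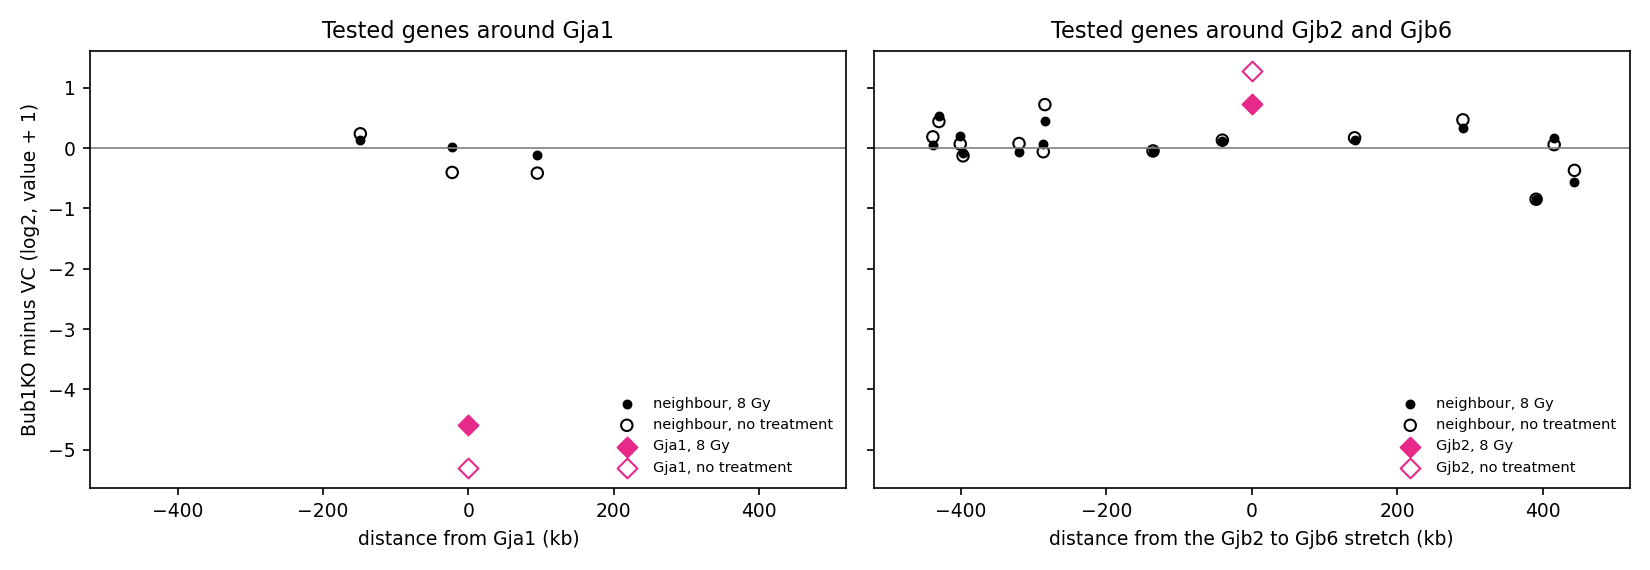
Difference of Bub1KO minus VC on the log2(value + 1) scale against distance in kb, for tested genes within 500 kb of Gja1 (left) and of the stretch of Gjb2 and Gjb6 (right). Filled symbols are after 8 Gy and open symbols with no treatment. The diamonds of Gja1 lie below -4 and those of Gjb2 above 0.7, while the 17 neighbours lie between -0.85 and 0.72.

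Genes with a pattern like that of Gja1 over the 12 libraries, by Pearson correlation of log2(value + 1), were Prex1 (0.972), Hmga2 (0.970), Etv4 (0.967), Irs1 (0.966) and Gucy1a1 (0.964). Prex1 encodes a Rac exchange factor, Hmga2 an architectural chromatin protein, Etv4 an ETS transcription factor, Irs1 an insulin receptor substrate and Gucy1a1 a subunit of soluble guanylate cyclase. Prex1 averaged 1.04 ± 1.05 normalized counts in Bub1KO and 32.7 ± 9.76 in VC after 8 Gy, and was at 0 in Bub1KO and 28.3 ± 7.46 in VC with no treatment. Hmga2 differed far less, at 853 ± 70.7 in Bub1KO and 1627 ± 110 in VC after 8 Gy. The genes most like Gjb2 were Lyplal1 (0.989), Dnah7b (0.988), Tyr (0.987), Mgst1 (0.986) and Samd3 (0.977). Tyr, which encodes tyrosinase, the rate-limiting enzyme of melanin synthesis, averaged 4627 ± 420 in Bub1KO and 1659 ± 67.1 in VC after 8 Gy, and 2523 ± 377 in Bub1KO and 650 ± 60.8 in VC with no treatment. These correlations describe 12 libraries that fall into 4 groups and share their scaling, and carry no p. Between Gja1 and Gjb2 the correlation was -0.64, although both had higher means after radiation in each genotype. Gja1 and Gjb2 were picked because they go opposite ways between genotypes, which by itself favours a negative correlation over these libraries. The value therefore restates that choice, and nothing is read from it.

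Genes of proteins that bind connexin 43 or govern its trafficking were compared between genotypes. Of 19 tested genes of this list, 2 were higher and 1 lower in Bub1KO after 8 Gy, where 30.7% of all tested genes were called, and 1 was higher and 1 lower with no treatment, where 4.01% were. The list's median log2 difference was -0.07 after 8 Gy and -0.03 with no treatment, against -0.01 over all tested genes in both. Cav1, which encodes the caveolar coat protein caveolin 1, averaged 394 ± 33.7 in Bub1KO and 315 ± 1.71 in VC after 8 Gy (log2 difference 0.32, limma adjusted p = 0.0162), and 341 ± 65.5 in Bub1KO and 179 ± 18.6 in VC with no treatment (0.92, limma adjusted p = 0.0147). Vcl, which encodes the actin-anchoring protein vinculin, averaged 1657 ± 205 in Bub1KO and 2343 ± 129 in VC after 8 Gy (-0.51, limma adjusted p = 0.000544), and 1106 ± 75.0 in Bub1KO and 1716 ± 95.4 in VC with no treatment (-0.63, limma adjusted p = 0.00760). Mapk3, the ERK1 kinase gene, was higher after 8 Gy by 0.47 (limma adjusted p = 0.000255). The untreated Cav1 call ended without any 1 of the VC libraries or without the filter (adjusted p up to 0.120), that of Vcl without VC replicate 1 or 2 (up to 0.0562), and the Cav1 call after 8 Gy in 3 of 14 settings (up to 0.116). The Vcl call after 8 Gy ended without the filter (0.0555). Without Bub1KO no treatment replicate 1 the untreated count was 4 higher and 1 lower.

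After radiation, 8 of these 19 genes were higher and 4 lower in Bub1KO, where 25.4% of all tested genes were higher and 23.9% lower, and 7 were higher and 3 lower in VC, against 27.6% and 25.8%. The list medians were 0.16 in Bub1KO and 0.09 in VC, against 0.03 and 0.02 over all tested genes. Tjp3, the gene of the scaffold protein ZO-3, averaged 62.9 ± 7.20 after 8 Gy and 21.8 ± 10.1 with no treatment in Bub1KO cells (log2 difference 1.60, limma adjusted p = 0.00110), and 68.6 ± 19.4 after 8 Gy and 24.1 ± 5.30 with no treatment in VC cells (1.45, limma adjusted p = 0.00205). Dbn1, which encodes the actin-binding protein drebrin, rose by 1.04 in Bub1KO and 1.12 in VC. Rab20 and Src had the next largest increases, Rab20 by 0.87 in Bub1KO and Src by 0.90 in VC.

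Genes of other cell junctions gave a mixed picture between genotypes. Of 12 tested adherens junction and desmosome genes, 2 were higher and 1 lower in Bub1KO after 8 Gy, where 30.7% of all tested genes were called. The higher ones were the cadherins Cdh1 (0.51, limma adjusted p = 0.0165) and Cdh13 (0.39, limma adjusted p = 0.00643), and the lower one was Cdh2, the N-cadherin gene, which averaged 1362 ± 139 in Bub1KO and 2022 ± 155 in VC (-0.57, limma adjusted p = 0.000247). Limma called none with no treatment, where 3 had an unadjusted p under 0.05 and edgeR and DESeq2 on reads each called 1. Calls for Cdh1 and Cdh13 ended in 4 and 2 of 14 settings, with adjusted p up to 0.0948 and 0.137. Of 9 tested tight junction genes, 1 was higher and 4 lower in Bub1KO after 8 Gy, against the same 30.7%. F11r, the gene of junctional adhesion molecule A, averaged 32.7 ± 1.35 in Bub1KO and 12.5 ± 0.976 in VC (log2 difference 1.32, limma adjusted p = 0.00116). Its relative Jam2 averaged 202 ± 13.8 in Bub1KO and 384 ± 31.9 in VC (-0.93, limma adjusted p = 2.62e-05), and Cgn, the cingulin gene, averaged 28.8 ± 5.17 in Bub1KO and 60.5 ± 10.6 in VC (-1.04, limma adjusted p = 0.00237, and 0.0514 without the filter). With no treatment only Cgn was called, lower by a log2 difference of -1.17 (limma adjusted p = 0.0474), and that call ended in 7 of 14 settings, with adjusted p up to 0.222. Without Bub1KO no treatment replicate 1 the untreated counts were 1 higher and 1 lower among adherens and desmosome genes, and 1 higher and 3 lower among tight junction genes.

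After radiation, 4 adherens and desmosome genes were higher and 5 lower in Bub1KO cells, and 4 were higher and 4 lower in VC cells, 9 and 8 of 12, where 49.4% of all tested genes were called in Bub1KO and 53.4% in VC. The largest difference was that of Jup, the plakoglobin gene, which is among those counted as higher in both genotypes. It averaged 38.2 ± 5.42 after 8 Gy and 6.13 ± 2.60 with no treatment in Bub1KO cells, a log2 difference of 2.51. In VC cells it averaged 26.8 ± 7.14 after 8 Gy and 5.49 ± 0.834 with no treatment, a log2 difference of 2.08. No untreated library reached the filter value of 10 for Jup (highest 9.05). It passed through its irradiated libraries alone, so its rise is given as a description without a p-value. Pkp2, the plakophilin 2 gene, rose by 1.05 in Bub1KO and 1.28 in VC. Among the 9 tight junction genes 3 were higher and 1 lower in Bub1KO, and 4 higher and 1 lower in VC, against the same shares. F11r rose by 2.19 in Bub1KO and 1.54 in VC, Jam2 by 1.04 and 1.38 in the same order. F11r reached at most 10.5 in untreated Bub1KO libraries and 5.16 in untreated VC ones, so it passed the filter through irradiated libraries. Its rises are given as a description, though the counts include them. Cgnl1, the gene of the cingulin-like protein paracingulin, averaged 275 ± 5.27 after 8 Gy and 137 ± 14.1 with no treatment in Bub1KO cells, and 305 ± 9.74 after 8 Gy and 165 ± 8.66 with no treatment in VC cells.

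Among other large-pore channel genes, the LRRC8 subunits of volume-regulated anion channels and the CALHM family, 6 were tested. After 8 Gy, where 30.7% of all tested genes were called, limma called 2 of these lower in Bub1KO, Calhm2 (-0.44, adjusted p = 0.00736) and Lrrc8b (-0.39, adjusted p = 0.00476), calls that ended without the filter (0.104 and 0.105). The Calhm2 call also ended with all 12 libraries in the fit. With no treatment none was called by limma, edgeR or DESeq2, 1 had an unadjusted p under 0.05 in limma, and limma called 1 lower without Bub1KO no treatment replicate 1. Radiation raised Calhm5 by 0.70 in Bub1KO (limma adjusted p = 0.000106) and 0.85 in VC (limma adjusted p = 1.90e-05).

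Purinergic receptors sense the ATP that pannexin channels release, and ectonucleotidases break it down. Of 9 tested genes, 7 were higher and 1 lower after radiation in Bub1KO cells, and 6 were higher and 1 lower in VC cells. Of all tested genes 25.4% were higher and 23.9% lower in Bub1KO, and 27.6% higher and 25.8% lower in VC. The list medians were 0.88 in Bub1KO and 0.84 in VC, against 0.03 and 0.02 over all tested genes. P2rx5 rose by 1.74 in Bub1KO (limma adjusted p = 0.00307) and 1.56 in VC (0.00563), and it averaged 25.4 ± 7.51 normalized counts after 8 Gy and 7.39 ± 4.23 with no treatment in Bub1KO cells. P2rx3 rose by 0.88 in Bub1KO and 1.98 in VC, P2ry2 by 1.29 and 0.79 in the same order, and P2rx1 by 1.15 and 1.43. In Bub1KO cells the P2rx3 call ended in 4 of 14 settings (adjusted p up to 0.0711) and the P2rx1 call in 2 (up to 0.0742). The better expressed P2rx7, the ATP receptor often paired with pannexin 1, averaged 1064 ± 41.4 after 8 Gy and 682 ± 49.3 with no treatment in Bub1KO cells, and 1211 ± 43.3 after 8 Gy and 676 ± 40.9 with no treatment in VC cells. Its level thus moved up with radiation (0.64 in Bub1KO, limma adjusted p = 1.68e-05, and 0.84 in VC, limma adjusted p = 1.49e-06), where Panx1 moved down. The count in Bub1KO was 5 higher and none lower without Bub1KO no treatment replicate 1, and likewise without irradiated replicate 1 or 2. Between genotypes after 8 Gy, 2 were higher and 1 lower in Bub1KO. They were P2rx1 (1.47), P2rx4 (0.41, limma adjusted p = 0.000360) and P2rx7 (-0.19, 0.0405, which ended in 9 of 14 settings with adjusted p up to 0.168). P2rx1 reached at most 10.7 in irradiated VC libraries and 3.78 in untreated VC ones, so it passed the filter through Bub1KO libraries. Its genotype difference is given as a description, though the count includes it, and its call ended without the filter. With no treatment limma, edgeR and DESeq2 called none, 4 had an unadjusted p under 0.05 in limma, and limma called 3 higher without Bub1KO no treatment replicate 1. For the interaction, limma, edgeR and DESeq2 called none of the 58 tested genes of the family, partner, junction, channel and purinergic lists, and 5 had an unadjusted p under 0.05 in limma. Without Bub1KO no treatment replicate 1, limma called 1 partner gene and 1 large-pore channel gene for the interaction. In that setting 1447 of all 14721 tested genes were called.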

How the data were processed

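RNA was measured in 12 libraries of B16F10 cells made with a stranded total RNA kit after ribosomal RNA removal, per the labels' protocols. Per the submitters' processing notes, the genome was GRCm38.p6 (mm10) and the tools were STAR, HTSeq, SAMtools, cutadapt and Trim Galore, without versions. The strand setting of the counting is not given in the sources used here. The authors deposited 2 tables of 55421 genes, whose sample columns hold a normalized signal, the read count divided by a size factor per library. Their mean column is the same in both tables, so the 12 libraries share a scaling. The deposited tables also hold the authors' log2 fold change, test score and p-value per gene, which were not used for any value here. Dividing by the smallest step gave whole reads for 100% of values above 0 (tolerance 0.01 of a read).

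The test was limma 3.58.1 (R 4.3.3) on log2(value + 1), with Benjamini-Hochberg adjustment over 14721 genes and a threshold of 0.05. Genotypes were compared on the 6 libraries of a treatment. Radiation effects and the interaction were fitted on all 12. The alternatives were pseudocounts of 0.5 and 4, no filter, edgeR 4.0.16 and DESeq2 1.42.0 on recovered reads, TMM factors, a replicate block, the other choice of libraries for the fit, and leaving out each library. The fit was tested on simulated data with 200 changed genes. Positions and exon lengths came from GENCODE M21, which matched 55240 identifiers. Ratios of reads carry exact 95% intervals.

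The members and lists were chosen with earlier results of these data known, and the motifs with the sequences in view. Named genes are the members, Bub1, at most 3 of the largest called differences of each list, the 5 genes most like Gja1 and Gjb2, and at most 3 neighbours of each place. P2rx7, P2rx4, Gja3, Gjb1 and the markers were named outside this rule, after their values were seen. The values of 1 neighbouring gene are not reported here.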

Additional observations from a re-analysis of the deposited data

Results flagged for a closer look

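Cd68, the gene of a lysosomal membrane protein that is used as a macrophage marker, responded to radiation differently in the 2 genotypes, by a test of the difference itself. It averaged 216 ± 7.54 normalized counts in Bub1KO and 113 ± 15.9 in VC after 8 Gy, and 19.4 ± 1.45 in Bub1KO and 24.1 ± 2.08 in VC with no treatment (SD, n = 3 each). The radiation effect in Bub1KO minus that in VC was 1.24 on the log2 scale (limma adjusted p = 0.0172). That call ended in 6 of 19 alternative settings, with adjusted p up to 0.0706. Lyz2, the lysozyme gene and the other leukocyte marker past the filter, had an interaction of the opposite sign, -1.06, that did not pass (limma adjusted p = 0.159). Lyz2 reached at most 5.16 in untreated VC libraries and 12.2 in untreated Bub1KO ones, so it passed the filter through irradiated libraries. Its interaction rests on these low untreated values.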

How the results depend on the processing

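The directions of the radiation effects on Gjb2, Gjc1 and Panx1 in both genotypes, and on Gja1 in VC, were the same under every alternative run. Between untreated genotypes Panx1 differed by 0.00 without Bub1KO replicate 1. The Gja1 differences depended on how low values were treated: Bub1KO minus VC with no treatment was -4.03 with a pseudocount of 4 and -6.05 with DESeq2, and after 8 Gy -4.07 with a pseudocount of 4. Its radiation effect in Bub1KO was 0.89 with a pseudocount of 4 and 2.21 with DESeq2. The radiation effect on Gja1 in VC lost its call with a pseudocount of 0.5 (0.96, limma adjusted p = 0.121), without the filter (0.96, 0.0961), with TMM factors (0.95, 0.0513) and without any 1 of the 6 VC libraries (0.79 to 1.10). The interaction of Gja1 was -0.04 with a pseudocount of 4 and 1.27 with DESeq2, and 0.17 to 0.99 with a library left out. The cause was not tested. Replicate numbers did not pair the samples (correlations of deviations -0.193 to 0.0549). With a replicate block, 312 genes were called between untreated genotypes and 47 for the interaction, against 591 and 81 without it, the untreated calls of Gjc3 and Cgn ended, and the radiation effect on Gja1 in VC had an adjusted p of 0.0396. Untreated genotype calls numbered 329 without the filter, 1769 with all 12 libraries in the fit, and 172 to 2736 with a library left out. After 8 Gy 2062 were called without the filter and 2105 with all 12 libraries, against 4512. The interaction calls numbered 283 with DESeq2 and 33 to 1447 with a library left out. Few reads limit the precision for Gja1 in Bub1KO cells, and differences in Gjb6 were not detectable at this depth.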
